A study of Mus musculus with 40 samples.

Results

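The SOX genes studied here (Sox2, Sox4, Sox5, Sox6, Sox9 and Sox11) and the 4 ID genes (Id1, Id2, Id3 and Id4) were followed through normal mouse cortex, p53-mutant gliomas and cell lines derived from such gliomas. The genes were chosen by name, as regulators of neural stem and progenitor cells, with earlier results of these data known. They are 10 of the 18193 genes measured, and 37 of the 34945 probe sets that name a single gene. Sox2, Id1 and Id3 had 1 probe set each, Id2, Id4 and Sox9 had 3, Sox6 had 4, Sox11 had 6, Sox5 had 7 and Sox4 had 8.

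The study built mouse models of glioblastoma from p53 mutations alone and profiled tumors, tumor-derived lines and normal forebrain on 40 Affymetrix mouse whole-genome arrays. In these conditional knockout (CKO) mice, Cre recombinase is driven by the human GFAP promoter and is directed to neural cells. The p53 null CKO gliomas (11 arrays) came from hGFAP-cre+;p53floxE2-10/floxE2-10 mice, in which Cre removes p53 from both alleles. The p53 R172H CKO gliomas (11 arrays) came from hGFAP-cre+;p53LSLR172H/floxE2-10 mice, in which Cre removes p53 from 1 allele and turns on a missense p53 from the other. The same genotype gave 11 lines from gliomas, called p53 R172H lines here, and 2 lines from early biopsies. The paper states that each of the 11 p53 R172H CKO tumors had a line derived from it. Tests between lines and gliomas here leave this pairing out and treat both groups as independent. The lines were grown as spheres in serum-free medium with EGF and bFGF, and have no culture of normal cells beside them. The paper names early passage for lines in other assays, and its expression methods and the labels give no passage for these arrays. The 5 control cortices were from 3 hGFAP-cre+;p53floxE2-10/+ mice and 2 hGFAP-cre-;p53floxE5-6/floxE5-6 mice, so all control animals carried a floxed p53 allele and the first 3 also carried Cre. The labels give no age, litter or array batch and tie no line to a tumor. Arrays are numbered in the order of cortices, p53 null CKO gliomas and then all p53 R172H CKO samples, so between these blocks array order and group cannot be told apart. Within the last block tumors and lines alternate. Nothing in the labels says whether samples of a group came from separate animals, so p-values speak of the scatter among these samples, which may be technical.

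SOX proteins bind the minor groove of DNA through an HMG box and bend it, and subgroups of the family act at successive steps of neural development. Sox2 (group B1) holds neural stem and progenitor cells undifferentiated. Sox9 (group E) marks stem cells and opens the way to glial fates, Sox4 and Sox11 (group C) act in committed and migrating precursors, and Sox5 and Sox6 (group D) act in oligodendrocyte progenitors and in some neurons. ID proteins carry a helix-loop-helix domain without a DNA-binding region. They pair with E proteins such as Tcf3, Tcf4 and Tcf12, keep these from partnering with basic helix-loop-helix (bHLH) factors that drive differentiation, and are induced in many cells by bone morphogenetic proteins (BMPs) through SMAD proteins.

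Values are deposited log2 signals. Where a gene had several probe sets the brightest one on average was taken, and differences are log2 differences between group means in a linear model of all 5 groups (limma) with standard errors (SE) and p-values adjusted over all 18193 genes by the Benjamini-Hochberg method. A difference passed at an adjusted p under 0.05. Signals of different probe sets are not compared with each other. In whole tissue, fewer cells of a type and less RNA per cell cannot be told apart.

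A few arrays stood apart. Markers of oligodendrocyte progenitors (10 genes, given as the median log2 difference from the cortex mean) lay between -2.77 and -0.08 in the gliomas of arrays 36, 41 and 50, and between 0.67 and 3.87 in the other 19 gliomas. Markers of mature neurons (12 genes) lay between -0.76 and 0.14 in the gliomas of arrays 38, 45 and 58, close to the cortices at -0.09 to 0.07, against -7.49 to -2.56 in the other 19 gliomas. Histology in the paper had recorded normal tissue in p53 R172H CKO primary tumor #7, and the labels do not say on which array it was. In p53 R172H lines, markers of microglia, endothelial cells and pericytes were lower than in the p53 R172H CKO gliomas for 11 of 11, 11 of 12 and 6 of 8 genes. Of all genes, 6.43% were lower in that comparison. Between gliomas and cortex, 22.6% of all genes were higher in gliomas and 24.7% were lower. All 11 markers of dividing cells were higher in gliomas than in cortex. All 12 neuron markers and 7 of 10 astrocyte markers were lower in gliomas than in cortex, and 6 of 10 markers of oligodendrocyte progenitors were higher. Of 11 microglia and macrophage markers 6 were higher in gliomas and 1 was lower, and 6 of 9 markers of mature oligodendrocytes and 6 of 12 endothelial markers were lower. The part of these cell types in the differences between gliomas and cortex was not tested. The targeted gene, Trp53, was not analysed here, so the genotypes rest on the labels.

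Against cortex, 5 of the 10 genes were higher in gliomas and none passed as lower. The 5 were Sox2, Sox4, Sox11, Id2 and Id3. Over all genes, 22.6% passed as higher and 24.7% as lower, and the median difference was -0.03 over all genes and 1.02 over the 10 members. The remaining 5 were Sox5, Sox6, Sox9, Id1 and Id4, and their differences ran from -1.80 for Id4 to 1.61 for Sox6. In p53 R172H lines against cortex 7 were higher, namely Sox2, Sox4, Sox6, Sox9, Sox11, Id2 and Id3, and Id4 was lower, beside 25.5% and 24.3% of all genes. These 2 comparisons share the cortices.

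**Figure D1:**
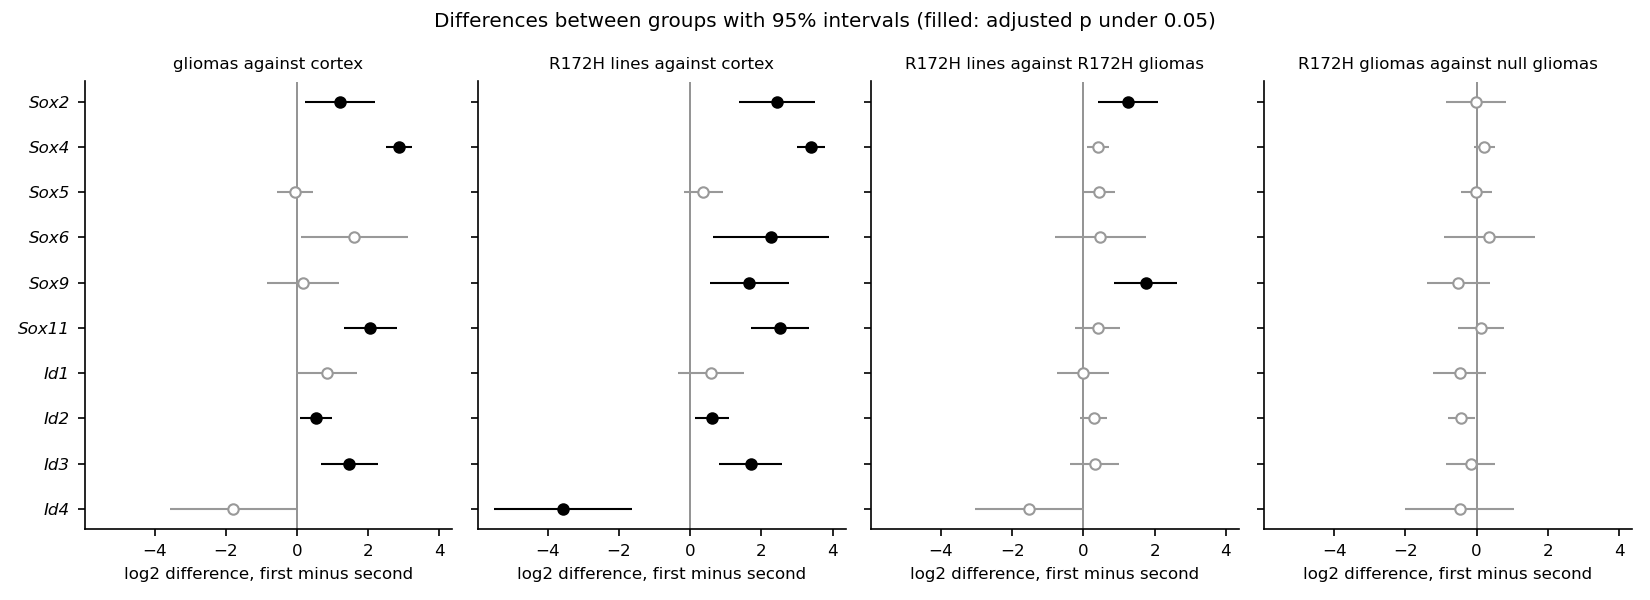
Log2 differences between group means (horizontal axis, first group minus second) for the 10 genes (vertical axis) in 4 comparisons, with 95% confidence intervals from limma. Filled points passed at an adjusted p under 0.05. Against cortex, Sox4 has the narrowest intervals and Id4 is the gene left of 0 that passes in the lines, and no point is filled between the glioma genotypes.

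Sox2 was higher in most gliomas than in cortex and higher again in the lines. The 5 cortices read 9.56, 9.61, 9.62, 9.75 and 10.20. The p53 null CKO gliomas ran from 9.15 to 12.09 around a median of 11.26, and the p53 R172H CKO gliomas spanned 6.20 to 11.79 (median 11.37). Of the 22 gliomas, 18 lay above every cortex, 2 lay within the cortex range and 2 lay below it, on arrays 36 and 50. The difference was 1.20 (SE 0.48, adjusted p = 0.0396), or 2.29-fold. This call was lost in 7 of 15 alternative analyses, among them those without cortex 1, 2, 3 or 4 (adjusted p from 0.0699 to 0.0816), the one with the 3 Cre-positive cortices alone (0.0979) and the one with cyclic loess normalization (a difference of 0.86, 0.145).

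In the p53 R172H lines Sox2 had a narrow range, from 11.78 to 12.83 with a median of 12.09, and the 2 early biopsy lines read 12.13 and 11.80. All 11 p53 R172H lines lay above every cortex, with a difference of 2.43 (SE 0.53, adjusted p = 0.000194), or 5.37-fold. Against the p53 R172H CKO gliomas the lines were higher by 1.24 (SE 0.42, adjusted p = 0.0406), with overlapping values. The size of this difference depended on the glioma of array 50, at 6.20. Without arrays 36, 41 and 50, of which it is the only p53 R172H CKO glioma, the difference was 0.77. These arrays were left out with values known, so no p-value is given for that setting. With all gliomas, the call was lost with the compared groups alone in the model (adjusted p = 0.0919) and with cyclic loess (0.0584).

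Sox9, the group E member, did not separate gliomas from cortex but was higher in the lines. The cortices read 7.66, 7.92, 8.13, 8.18 and 8.36. The p53 null CKO gliomas spanned 7.10 to 9.41 around a median of 8.56, and the p53 R172H CKO gliomas spanned 5.77 to 10.12 around 8.003, so tumors lay on both sides of the cortices. The glioma difference was 0.17 (SE 0.50, 95% interval -0.85 to 1.19), and its sign turned to -0.03 with cyclic loess. The lines ran from 7.02 to 10.79 with a median of 10.08, and the line of array 65 was the one below the cortex range. Lines exceeded p53 R172H CKO gliomas by 1.75 (SE 0.43, adjusted p = 0.00523), or 3.36-fold, a call kept in all 9 alternatives. All 3 Sox9 probe sets passed in this comparison, with differences from 0.38 to 1.99.

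Sox2 and Sox9 were the 2 members that passed as higher in the lines than in the p53 R172H CKO gliomas, and none passed as lower, beside 7.24% and 6.43% of all genes. The members' median difference was 0.41, against 0.05 over all genes. With cyclic loess Sox9 alone passed, and the split of all calls moved from 1317 higher and 1170 lower to 790 higher and 1400 lower. Most of the vessel and immune markers were lower in the lines than in the tumors, as given above. The part of these other cells in the 2 differences was not tested.

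**Figure D2:**
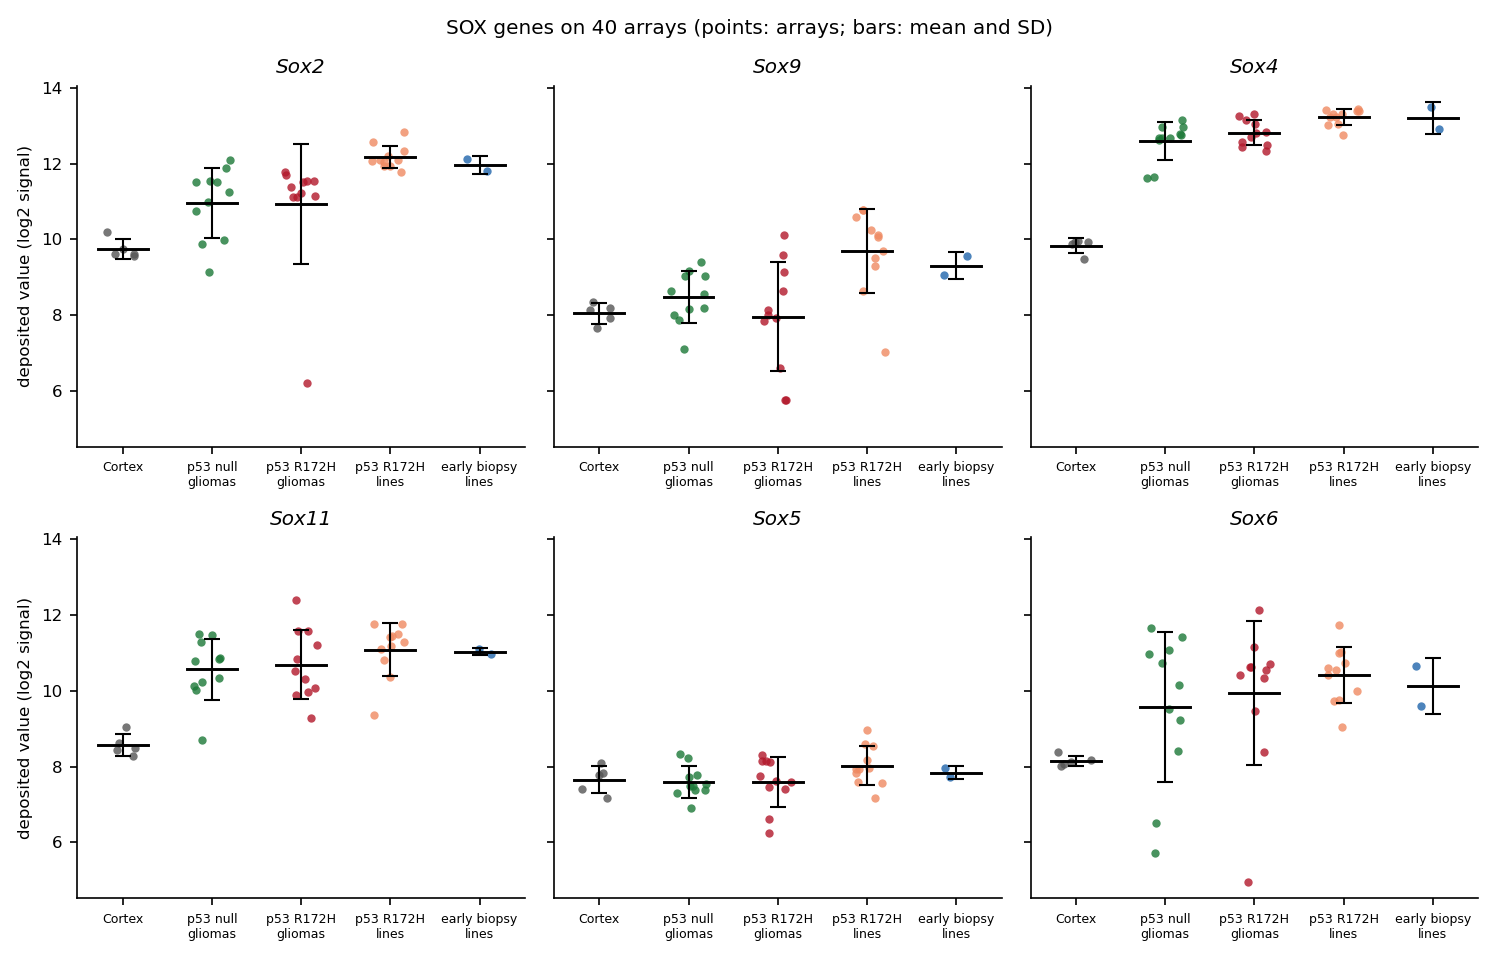
Deposited log2 signal (vertical axis) of the 6 SOX genes in the 5 groups (horizontal axis). Each point is an array and the bars are the group mean and SD. For Sox4 the lowest glioma (11.63) lies above the highest cortex (9.96), while Sox6 and Sox2 each have a few gliomas far below the rest.

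Sox4 had the smallest adjusted p of the 10 genes and no overlap between tumor and cortex. The cortices read 9.49, 9.89, 9.92, 9.94 and 9.96. The gliomas ran from 11.63 to 13.16 (p53 null CKO, median 12.67) and from 12.35 to 13.31 (p53 R172H CKO, median 12.80), so no glioma overlapped a cortex. The difference was 2.87 (SE 0.18, adjusted p = 6.59e-15), or 7.29-fold. It was 3.39 (SE 0.19, adjusted p = 2.35e-16), or 10.5-fold, in the p53 R172H lines, whose values ran from 12.76 to 13.45, and the early biopsy lines read 13.50 and 12.91. Of its 8 probe sets 6 were higher in gliomas, with differences from 0.48 to 3.34, and the other 2, near 3.3 on average, did not pass. The lowest glioma values, 11.63 and 11.65, were those of arrays 38 and 45, where neuron markers were near the level of cortex. Array 58, the other glioma with such neuron markers, read 12.44, inside the range of the rest. A link of Sox4 to neuron content was not tested. Lines were higher than p53 R172H CKO gliomas by 0.42 for the main probe set (SE 0.15, adjusted p = 0.0574). This difference passed for 5 of the 8 probe sets, and for the main one without the gliomas of arrays 38, 45 and 58 (0.38, adjusted p = 0.0182).

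Sox11, the other group C gene, was also higher in gliomas, with a wider spread among them. Cortices read 8.28, 8.45, 8.49, 8.63 and 9.04, the p53 null CKO gliomas ran from 8.72 to 11.51 (median 10.79) and the p53 R172H CKO gliomas from 9.27 to 12.41 (median 10.53). A single glioma, on array 45, lay within the cortex range, and 21 of 22 lay above it. The difference was 2.05 (SE 0.37, adjusted p = 1.94e-05), or 4.15-fold, and all 6 probe sets passed, from 1.87 to 2.50. Lines ran from 9.37 to 11.76, above every cortex, with a difference of 2.51 (SE 0.40, adjusted p = 2.16e-06). The early biopsy lines read 11.10 and 10.98. Lines and p53 R172H CKO gliomas differed by 0.40 (95% interval -0.25 to 1.04, adjusted p = 0.436).

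The promoters of Sox4 and Sox11, the 250 bases before the RefSeq transcript start (assembly GRCm38.p6), are given here on the strand of the gene because both calls were kept in all 15 alternatives. These motifs were searched on both strands and are in capitals: CAGCTG, an E-box of the kind bound by E proteins, CCAAT, which reads ATTGG on the opposite strand, and GGCGCC, a GC-rich element of BMP-responsive genes. Of 32851 mouse promoters of that length, 13.0% hold CAGCTG, 33.8% hold CCAAT and 9.59% hold GGCGCC.
Sox4, chr13:28953700-28953949, minus strand: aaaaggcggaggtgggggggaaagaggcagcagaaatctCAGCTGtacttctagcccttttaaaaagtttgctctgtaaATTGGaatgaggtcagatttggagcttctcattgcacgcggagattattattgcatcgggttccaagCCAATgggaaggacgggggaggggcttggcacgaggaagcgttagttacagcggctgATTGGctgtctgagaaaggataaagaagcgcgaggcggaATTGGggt
Sox11, chr12:27342719-27342968, minus strand: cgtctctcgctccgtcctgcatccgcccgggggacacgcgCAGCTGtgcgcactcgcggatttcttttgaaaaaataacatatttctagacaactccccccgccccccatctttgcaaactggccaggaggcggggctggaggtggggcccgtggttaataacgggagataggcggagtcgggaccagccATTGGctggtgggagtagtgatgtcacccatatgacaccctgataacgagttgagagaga
Both hold a CAGCTG at nearly the same distance from the start, 211 bases before it in Sox4 and 210 in Sox11. Sox4 holds 4 CCAAT boxes, the nearest 8 bases before the start, and Sox11 holds 1, at 60 bases. None of the marked motifs overlap. A match of letters is a description and not a bound site, and no binding was measured in this series.

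Of the group D pair, Sox6 varied most among the gliomas. Cortices read 8.03, 8.06, 8.11, 8.17 and 8.38. The p53 null CKO gliomas ran from 5.72 to 11.66 (median 10.16) and the p53 R172H CKO gliomas from 4.96 to 12.14 (median 10.56). Of the 22, 19 lay above every cortex and 3 lay below every cortex, on arrays 36, 41 and 50. Its SD among gliomas of a genotype, 1.94, was larger than that of 99.0% of genes. The difference of 1.61 (SE 0.74, adjusted p = 0.0696) did not pass for this probe set, and it passed for 2 of the 4 Sox6 probe sets. Without the 3 gliomas it was 2.25. These were left out with values known and are the 3 lowest in Sox6, so no p-value is given. All lines lay above every cortex, from 9.04 to 11.75, with a difference of 2.27 (SE 0.80, adjusted p = 0.0175) that was lost with the Cre-positive cortices alone (adjusted p = 0.0607).

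Sox5 stayed near the level of cortex. The cortices read 7.18, 7.40, 7.79, 7.83 and 8.08, and the gliomas ran from 6.24 to 8.33 with 13 of 22 inside the cortex range. The difference was -0.07 (95% interval -0.57 to 0.44), and its sign depended on the analysis, from -0.19 to 0.05. One of its 7 probe sets passed as higher, by 0.37 at a mean signal of 4.38. In the lines the difference from cortex was 0.37 (SE 0.27, adjusted p = 0.266).

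**Figure D3:**
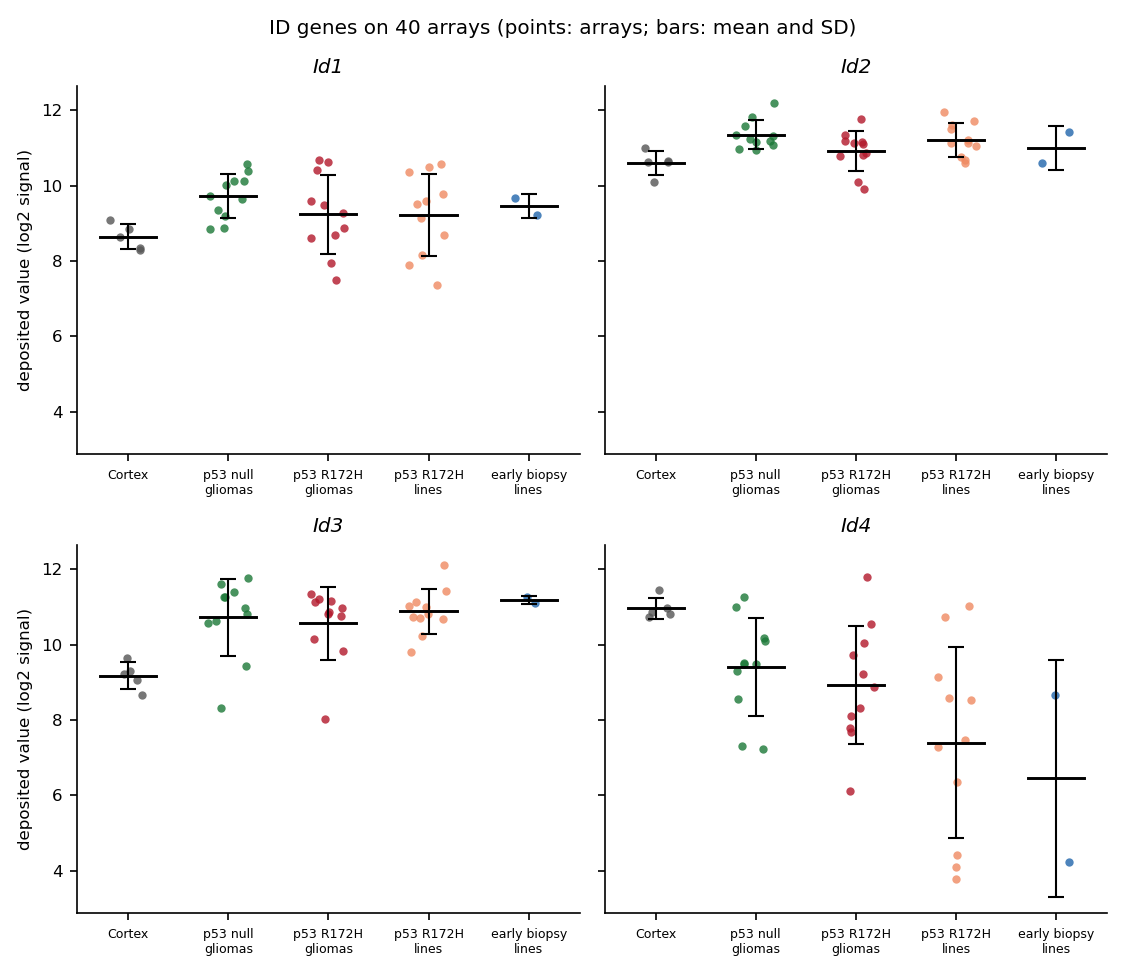
Deposited log2 signal (vertical axis) of the 4 ID genes in the 5 groups (horizontal axis), with each array as a point and the group mean and SD as bars. Id3 rises above the cortices in 19 of 22 gliomas, while Id4 falls from a tight cortex group to lines spread from 3.77 to 11.03.

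Id3 had the largest rise of the ID genes by their brightest probe sets. Cortices read 8.66, 9.06, 9.23, 9.30 and 9.65, the p53 null CKO gliomas ran from 8.33 to 11.76 (median 10.97) and the p53 R172H CKO gliomas from 8.02 to 11.36 (median 10.87). Of the 22 gliomas, 19 lay above every cortex, and those that did not were on arrays 36, 41 and 50. The difference was 1.47 (SE 0.40, adjusted p = 0.00247), or 2.77-fold, and it passed in all 15 alternatives. Among these was the setting without arrays 36, 41 and 50, the lowest gliomas in Id3, so passing there adds no support. All 11 p53 R172H lines, from 9.82 to 12.12, lay above every cortex, by 1.70 on average (SE 0.43, adjusted p = 0.0012). The early biopsy lines read 11.26 and 11.12.

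Id2 moved less than Id3. Id2 read 10.10, 10.63, 10.63, 10.66 and 11.01 in cortex, 10.94 to 12.20 in p53 null CKO gliomas and 9.92 to 11.77 in p53 R172H CKO gliomas. Its difference in gliomas was 0.53 (SE 0.22, adjusted p = 0.0421), and this call was lost in 7 of 15 alternatives. Among them were those without cortex 1, 2, 4 or 5 (adjusted p from 0.0669 to 0.169) and with cyclic loess (a difference of 0.20, 0.496). Another left out the gliomas of arrays 38, 45 and 58 with values known, so its p-value is not given. All 3 Id2 probe sets passed in gliomas, by 0.50, 0.53 and 2.26. The last belongs to a dimmer probe set, with a mean of 6.61, and is larger than the rise of Id3. In p53 R172H lines Id2 was higher than in cortex by 0.61 (adjusted p = 0.0317), a call lost in 5 of 13 alternatives. These were cyclic loess, which brought the difference to 0.18 (adjusted p = 0.568), the Cre-positive cortices alone (0.0906), and the analyses without cortex 1 (0.48, 0.123), 4 (0.0521) or 5 (0.0517).

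Id1 read 8.30, 8.35, 8.64, 8.84 and 9.08 in cortex and 7.49 to 10.69 in gliomas, where 15 of 22 lay above every cortex, 5 inside their range and 2 below. Its difference of 0.84 (SE 0.42, adjusted p = 0.103) did not pass except with array quality weights (0.96, adjusted p = 0.00822). In the lines, from 7.36 to 10.57, 7 of 11 lay above every cortex and 3 below, with a difference of 0.59 (adjusted p = 0.303).

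Id4 went the other way. The cortices read 10.73, 10.80, 10.88, 10.97 and 11.45. The p53 null CKO gliomas ran from 7.23 to 11.25 (median 9.50), the p53 R172H CKO gliomas from 6.11 to 11.78 (median 8.88), and 19 of the 22 lay below every cortex. The difference of -1.80 (SE 0.88, adjusted p = 0.0897) did not pass in the 5-group model. It passed when only cortices and gliomas entered the model (adjusted p = 0.0213), with array quality weights (0.0121) and with the mean of the 3 Id4 probe sets (-1.98, 0.0344), and 2 of the 3 probe sets passed as lower by themselves.

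In the p53 R172H lines Id4 ran from 3.77 to 11.03 with a median of 7.46. Of the 11 lines, 10 lay below every cortex, and the difference was -3.56 (SE 0.95, adjusted p = 0.00196), an 11.8-fold lower mean. All 3 probe sets passed, from -3.97 to -2.82, and the call held in all 13 alternatives. The SD among these lines, 2.53, was larger than that of 99.9% of genes. The 3 lowest p53 R172H lines (3.77, 4.10 and 4.43) and an early biopsy line (4.24) lay below the median of all deposited values, 5.36, while none of the 22 gliomas did. The other early biopsy line read 8.67. Against the p53 R172H CKO gliomas the lines were at -1.53 (95% interval -3.05 to 0.00, adjusted p = 0.181).

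The promoters of Id3 and Id4 are printed because these were the ID genes with the largest rise and the largest fall by their brightest probe sets, with the same motifs in capitals.
Id3, chr4:136143572-136143821, plus strand: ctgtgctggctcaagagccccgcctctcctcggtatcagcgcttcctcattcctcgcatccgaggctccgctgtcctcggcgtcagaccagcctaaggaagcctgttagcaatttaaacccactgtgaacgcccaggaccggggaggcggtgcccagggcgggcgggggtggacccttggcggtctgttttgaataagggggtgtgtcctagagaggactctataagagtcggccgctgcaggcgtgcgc
Id4, chr13:48260866-48261115, plus strand: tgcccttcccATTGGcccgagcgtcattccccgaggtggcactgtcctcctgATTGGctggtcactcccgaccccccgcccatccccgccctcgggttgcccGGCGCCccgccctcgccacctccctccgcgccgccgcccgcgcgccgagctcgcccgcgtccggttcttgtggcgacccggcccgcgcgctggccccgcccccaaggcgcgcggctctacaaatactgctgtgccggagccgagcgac
Id4 holds CCAAT boxes at 240 and 198 bases before the start and a GGCGCC at 148, and the Id3 window holds none of these letters. Id2 holds a CAGCTG at 196 bases, a GGCGCC at 231 and CCAAT boxes at 159, 120 and 76.

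The glioma genotypes were not told apart by any member. None of the 10 passed between p53 R172H CKO and p53 null CKO gliomas, beside 0% of all genes as higher and 0.033% (6 genes) as lower, and at an unadjusted p under 0.05 there was 1 member and 2024 genes. That member was Id2, lower in p53 R172H CKO gliomas by 0.43 on the log2 scale (SE 0.19, unadjusted p = 0.0275, adjusted p = 0.38). The 95% intervals of the differences were narrowest for Sox4 (-0.09 to 0.52) and widest for Id4 (-2.01 to 1.05), so a change of Id4 or Sox6 (-0.92 to 1.65) of about the size of 1 on the log2 scale was not detectable with these arrays. Early biopsy lines against p53 R172H lines gave no member, beside 0% of genes in either direction (515 genes and 0 members at an unadjusted p under 0.05). With 2 early lines the intervals were wide, from -0.58 to 0.52 for Sox4 up to -3.71 to 1.81 for Id4.

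Within the gliomas, some members parted from others on the same tumors. In the gliomas of arrays 36, 41 and 50 Sox2 read 9.15, 9.88 and 6.20, Sox6 read 5.72, 6.51 and 4.96, and Id3 read 8.33, 9.43 and 8.02. All 19 other gliomas were above these 3 for each of the 3 genes. How many of all 18193 genes part these tumors from the rest was not counted, so the split cannot be called particular to these members. On the same arrays Sox11 read 11.47, 11.51 and 12.41, above 17 of the other 19 gliomas, and Sox4 read 12.63, 12.76 and 12.71, inside their range. These arrays were singled out with values known, so this is a description and carries no test. Of 17 other genes looked at, also chosen after values were seen, 2 were higher in all 3 of these tumors than in any other glioma, and 15 overlapped. The 2 were Nhlh1 and Neurod1. Nhlh1, a bHLH factor of newborn neurons, read 9.04 to 9.59 there and 3.37 to 4.27 in the other gliomas, and Neurod1, another neuronal bHLH factor, read 11.31 to 12.60 against 3.51 to 9.43. Among those that overlapped, Olig2, a bHLH factor of oligodendrocyte progenitors, read 3.94 to 8.96 against 8.41 to 11.21, and Sox3, a close relative of Sox2, read 4.55 to 5.50 against 4.97 to 10.49. Pdgfra, a receptor of oligodendrocyte progenitors, read 8.09 to 12.43 against 10.29 to 13.81, and Dcx, a neuroblast protein, 8.85 to 11.52 against 3.93 to 9.90. The neuroblast marker score was 4.13 on array 50, 0.68 on array 36 and -0.72 on array 41, and the last 2 lie within the range of the other 19 gliomas, -1.11 to 2.59.

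**Figure D4:**
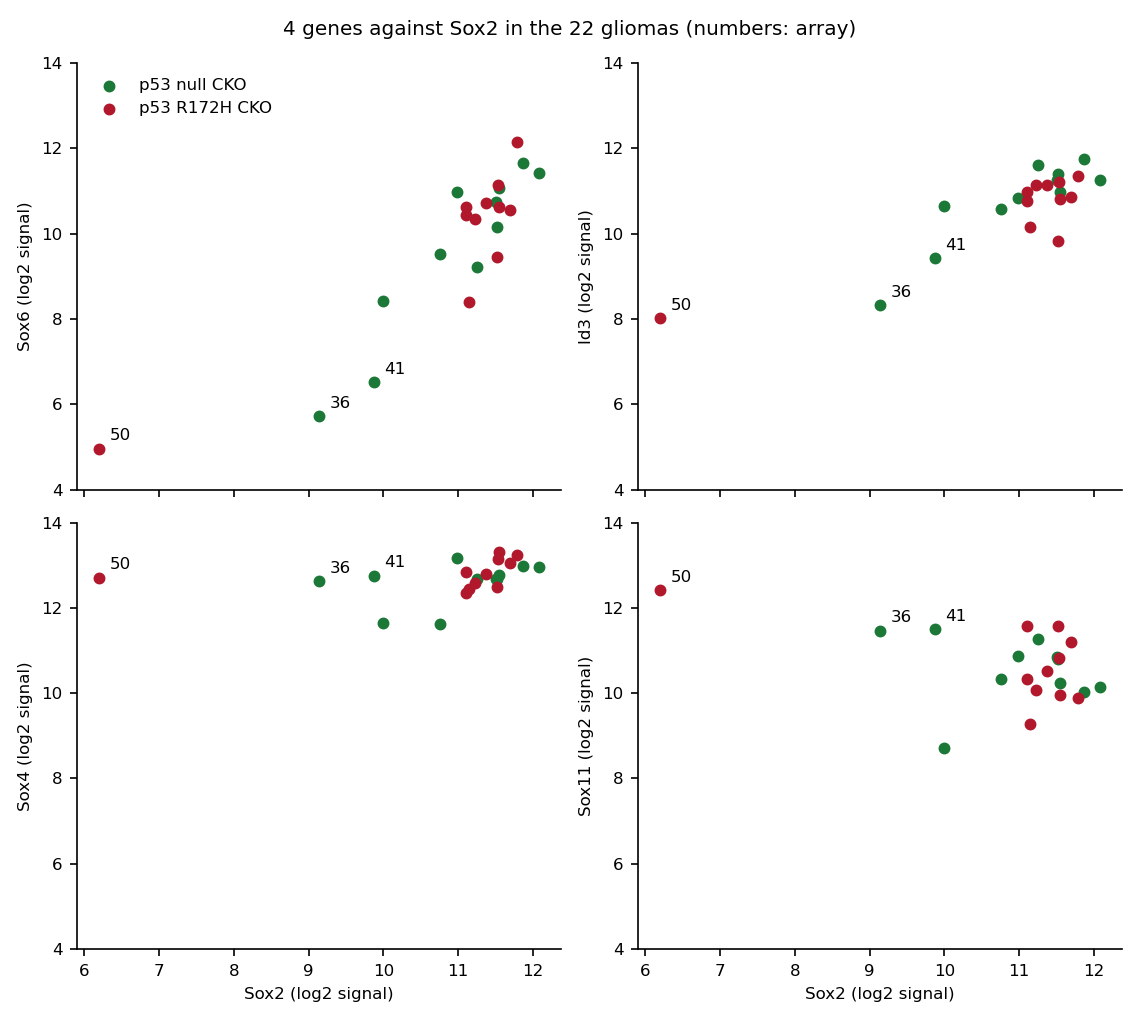
Sox6, Id3, Sox4 and Sox11 (vertical axes, log2 signal) against Sox2 (horizontal axis, log2 signal) in the 22 gliomas, each point a tumor colored by genotype. The gliomas of arrays 36, 41 and 50 lie at the low end of Sox2 with low Sox6 and Id3, but Sox4 near 12.7 and Sox11 above 11.4.

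Across the 22 gliomas, with the genotype means removed, 6 of the 45 pairs of members were correlated at an adjusted p under 0.05 (permutation test within genotype, 100000 permutations). The arrays fall into the clusters described above, so no coefficient over the 22 is given for these pairs. Over the 19 gliomas without arrays 36, 41 and 50, 3 pairs passed. These arrays were left out with values known and are the lowest in Sox2 and Sox6. The 19 are therefore a description, and no p-value is given for them. Sox4 and Sox6 had r = 0.74 and rho = 0.71, with r = 0.67 without the 2 arrays farthest in Sox4. Sox2 and Sox4 had r = 0.75 and rho = 0.68, with r = 0.64 without the 2 farthest in Sox2. Sox2 and Sox6 had r = 0.70 and rho = 0.63, with r = 0.56 without the 2 farthest in Sox2. Over all 22 gliomas, Sox4 with Sox6 and Sox2 with Sox4 did not pass by r (permutation adjusted p = 0.358 and 0.457). By rho both were under 0.05 (permutation adjusted p = 0.0169 and 0.0451). Arrays 38, 45 and 58 were then left out too, also with values known. Over the 16 gliomas that remain, none of the 45 pairs passed and 3 had an unadjusted permutation p under 0.05. Sox4 and Sox6 then had r = 0.59 (permutation p = 0.0116, adjusted 0.202), Sox2 and Sox4 had r = 0.39 (adjusted permutation p = 0.564) and Sox2 and Sox6 had r = 0.49 (adjusted permutation p = 0.564). Without the 2 arrays farthest in the first gene of each pair, these were 0.77, 0.69 and 0.59, so the coefficients move with single arrays. The smallest p was that of Sox6 and Sox11, with r = -0.67 (permutation p = 0.0024, adjusted 0.108). Whether the lost calls come from the tumors left out or from the smaller number was not tested.

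By the profile over all 40 arrays, the genes most like Sox2 were Ptprz1 (r = 0.93), Olig2 (0.93) and Npas3 (0.91), and those most like Sox6 were Pcdh15 (0.91), Olig1 (0.91) and Sh3d19 (0.90). The genes most like Sox4 were Hnrnpf (0.96), Hmgn1 (0.94) and Cdkn2a (0.94), and those most like Sox11 were Rhno1 (0.91), Mex3a (0.91) and Tdp1 (0.90). Id3 was most like Sox6 (0.85), H1f2 (0.84) and Pcdh15 (0.84). Id4 was most like Tifa (0.76), Selenop (0.74) and Syne1 (0.72), Sox9 like Ghdc (0.77), Rpl4 (0.71) and Dpagt1 (0.71), and Sox5 like Dock1 (0.73), Lrrc4b (0.70) and Etv5 (0.68). Id1 had Sys1 (0.70), Cp (0.68) and Htra3 (0.67) nearest, and Id2 had the lowest best match, Rab13 (0.59), with Ifitm2 (0.59) and Parp3 (0.57). Within the 22 gliomas the nearest genes were Mgat4a for Sox2 (0.95), Zfp740 for Sox4 (0.86), Rnf144b for Sox5 (0.84), Rgcc for Sox6 (0.96), Hectd2 for Sox9 (0.72), Suv39h2 for Sox11 (0.87), A930017M01Rik for Id1 (0.75), 4833422C13Rik for Id2 (0.71), Tsc22d4 for Id3 (0.94) and A330048O09Rik for Id4 (0.76). Without arrays 36, 41 and 50, the nearest genes were Ccdc61 for Sox2 (0.89), Lipe for Sox5 (0.82), Rnf144a for Sox6 (0.94) and Slc25a36 for Id3 (0.88). Adgre5 was then nearest to Sox9 (0.77), Vrk1 to Sox11 (0.89), Prm1 to Id1 (0.81), Neu1 to Id2 (0.79) and Gpr37 to Id4 (0.76). Zfp740 stayed nearest to Sox4 (0.91). All of these are coefficients over arrays that share group differences and tumor content, ranked over 18193 genes, and are given as a description.

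The genes around the ID proteins were read against the shares of all genes. Of 24 genes of BMP and SMAD signalling, 4 were higher in gliomas than in cortex, 5 were lower and 15 did not pass, with a median difference of -0.12. Both counts are below the shares over all genes, 22.6% higher and 24.7% lower. The higher ones were led by Bmp4, a BMP ligand (1.84, adjusted p = 0.0436), and Smad5, which carries the signal to the nucleus (1.41, adjusted p = 1.35e-05). The lower ones were led by Bmp6, another ligand (-2.28, adjusted p = 4.77e-09), and Smad7, an inhibitory SMAD (-1.14, adjusted p = 0.000556). In p53 R172H lines against cortex, where 25.5% of all genes were higher and 24.3% lower, 3 were higher and 7 lower, with Smad5 (1.81) and the receptor Bmpr1a (1.19) up, and Bmp6 (-2.95) and Smad7 (-1.84) down. No gene of this list passed between lines and p53 R172H CKO gliomas, beside 7.24% higher and 6.43% lower of all genes.

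Of 21 measured bHLH partners and targets of ID proteins, 7 were higher in gliomas, 3 were lower and 11 did not pass, beside 22.6% higher and 24.7% lower of all genes, with a median difference of 0.74. Olig2 (2.30, adjusted p = 0.00544) and the E protein Tcf3 (2.07, adjusted p = 1.94e-07) rose most, and the neuronal factors Neurod6 (-3.84, adjusted p = 0.000374) and Neurod2 (-2.03, adjusted p = 0.000226) fell most. In the lines 10 were higher than in cortex and 2 lower, beside 25.5% and 24.3% of all genes. Olig2 (3.37) and Hes6 (2.87) were highest and the same Neurod6 (-5.63) and Neurod2 (-2.62) lowest. Against the p53 R172H CKO gliomas 3 were higher in lines and none lower, beside 7.24% and 6.43% of all genes. The 3 were Hes6 (1.09, adjusted p = 0.0146), Bhlhe40 (1.07, adjusted p = 0.023) and the E protein Tcf12 (0.60, adjusted p = 0.0141).

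Of 13 other Sox genes, 2 were higher and 2 lower in gliomas than in cortex, both below the shares of all genes (22.6% and 24.7%). The higher ones were Sox3 (3.27, adjusted p = 0.000148) and the group C gene Sox12 (1.59, adjusted p = 9.97e-06). The 2 lower ones were Sox17 (-1.18, adjusted p = 3.77e-08), an endothelial factor, and Sox14 (-0.23, adjusted p = 0.0404), at a mean of 4.38 in gliomas. In lines against p53 R172H CKO gliomas Sox21, a group B2 gene, was higher (1.67, adjusted p = 0.00152), and Sox18 (-1.91, adjusted p = 0.00412) and Sox7 (-0.92, adjusted p = 0.0206), both of vessels, were lower. Over all genes, 7.24% were higher and 6.43% lower there. Sox18 is itself in the endothelial list, and the 10 endothelial markers that are not Sox genes were all lower in that comparison. In lines against cortex 4 were higher, led by Sox3 (4.45) and Sox21 (2.29), and 2 were lower, Sox18 (-2.86) and Sox17 (-1.47). The shares over all genes were 25.5% and 24.3%.

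Of 22 neural stem cell genes, 10 were higher in gliomas than in cortex and 2 were lower, beside 22.6% and 24.7% of all genes, with a median difference of 0.59. Ezh2, a histone methyltransferase (4.66, adjusted p = 2.67e-11), and Hmga2, a chromatin protein of fetal stem cells (3.66, adjusted p = 6e-04), rose most. The 2 that fell were Gli3 (-1.40, adjusted p = 0.049) and Nr2e1 (-1.10, adjusted p = 0.0169), a nuclear receptor of adult neural stem cells. In lines against p53 R172H CKO gliomas 5 were higher and none lower, beside 7.24% and 6.43% of all genes. The 5 were led by Lrig1 (1.76, adjusted p = 0.00955) and Nr2e1 (1.12, adjusted p = 0.0188). In lines against cortex 14 were higher and none lower, beside 25.5% and 24.3% of all genes. The 14 were led by Ezh2 (5.16) and Tnc, an extracellular matrix protein (4.77). No gene of the 4 lists passed between the glioma genotypes or between early biopsy and p53 R172H lines.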

How the data were processed

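RNA of 40 mouse samples (1 array each) was measured on Affymetrix mouse whole-genome arrays. The authors deposited log2 signals made by robust multi-array averaging, with background correction and quantile normalization of all arrays as a set. The log base is inferred from the range, 2.00 to 14.5. Quantile normalization hides a shift of most genes. Of 45101 probe sets, 34945 named 1 gene. Each gene took its probe set with the highest mean. Differences came from limma (version 3.58.1, R 4.3.3) on all 5 groups at once, with Benjamini-Hochberg adjustment over 18193 genes, and tested on simulated data. No filter was applied to dim signals. Correlations and counts used Python 3.11.15. Promoters came from RefSeq tables (GRCm38.p6), with entries for 8 of 10 members. Groups followed the labels. The members, gene lists, marker lists and rules for named genes (the members, up to 2 largest rises and 2 largest falls that passed in each pathway list, and the nearest genes by r) were chosen with earlier results of these data known. The number of arrays limits the precision.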

Additional observations from a re-analysis of the deposited data

Results flagged for a closer look

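Sox4 in the cortex of array 30 read 9.49, below the other 4 cortices at 9.89 to 9.96, a gap large against the range of that group. Of the 10 genes tested in the cortices, it was the only one with such an array, and chance gives about 1 in 20 groups. Without this cortex the Sox4 difference between gliomas and cortex was 2.78, with all gliomas above the remaining cortices.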

How the results depend on the processing

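Members passing as higher in gliomas numbered 3 with cyclic loess and with the Cre-positive cortices alone, and 3 to 4 when 1 cortex was left out, against 5. Members passing as lower numbered 1 in place of 0 with the mean of all probe sets, with the compared groups alone and with array quality weights. Members higher in lines than in p53 R172H CKO gliomas fell from 2 to 1 with cyclic loess. Correlated pairs numbered 3 without arrays 36, 41 and 50 and 0 without 36, 38, 41, 45, 50 and 58, both choices made after seeing the data, against 6. Other counts of members stayed within 1.5 times in the 106 settings compared. Over all genes, the glioma genotypes differed in 6 genes, none with the compared groups alone, with cyclic loess or without arrays 38, 45 and 58, and 14 (1 higher, 13 lower) with array weights. Early biopsy lines gave 1 gene with array weights.

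Signs turned only for differences that did not pass. With the mean of all probe sets these were Sox5 in gliomas against cortex (0.014), and Sox11 (0.003) and Id2 (0.003) in early biopsy lines. Id2 there was 0.25 without _x_at, _s_at and _a_at probe sets. With cyclic loess Sox9 in gliomas against cortex was -0.031. With array weights Sox5 between genotypes was 0.044, and Sox6 and Id3 in lines against gliomas were -0.16 and -0.002. Without arrays 36, 41 and 50, Sox5 in gliomas against cortex was 0.054, Sox2 and Sox5 between genotypes 0.12 and 0.024, and Sox6 in lines against gliomas -0.023. Leaving out a cortex gave Sox5 differences of -0.18 to 0.042. Leaving out an early biopsy line, with the lone line assumed to vary like the other groups, gave ranges of -0.002 to 0.45 for Id1, -0.61 to 0.21 for Id2, -3.17 to 1.27 for Id4, -0.32 to 0.26 for Sox4, -0.81 to 0.24 for Sox6 and -0.11 to 0.004 for Sox11. The causes were not tested. No paired analysis was possible because the labels do not say which line came from which tumor. The 5 cortices and 2 early biopsy lines limit the precision.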
